A study of Mus musculus with 24 samples.

Results

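The genes described here are the 8 genes of the epithelial sodium channel (ENaC) and of the aldosterone response that controls it: Scnn1a, Scnn1b, Scnn1g, Nr3c2, Hsd11b2, Sgk1, Nedd4l and Tsc22d3. They were chosen by symbol, with no threshold on a measured value, and all 8 were found among the 55335 genes counted and among the 16092 genes that passed the filter on low counts. RNA was sequenced from whole kidneys of 24 mice, 6 in each of 4 groups, to ask what loss of Pex5 in the renal tubule changes. Pex5 encodes the receptor that brings proteins into peroxisomes. All mice were on the C57BL/6J background and carried the Pex5 lox/lox alleles. Male (cKOm) and female (cKOf) knockout mice also carried Pax8-rtTA and LC1, which together express Cre along the renal tubule when doxycycline is given. Male (Ctrlm) and female (Ctrlf) littermate controls carried the lox alleles alone. Doxycycline treatment began at 8 weeks of age, lasted 2 weeks and was given to all 4 groups. Tissue was collected 4 weeks later, at ZT9 (9 hours after lights on) by the labels' note on tissue collection, while a general note gives ZT3 for the experiments. Because the whole organ was measured, fewer cells of a type and less RNA per cell cannot be told apart, and cells outside the tubule keep Pex5.

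ENaC is the sodium channel in the apical membrane of the cells of the late distal nephron and collecting duct. Its pore is built from the α, β and γ subunits that Scnn1a, Scnn1b and Scnn1g encode. Aldosterone enters these cells and binds the mineralocorticoid receptor (Nr3c2), while the dehydrogenase encoded by Hsd11b2 inactivates the glucocorticoids that would otherwise occupy the same receptor. The receptor induces Sgk1, a kinase that phosphorylates the ubiquitin ligase Nedd4-2 (Nedd4l) and so keeps it from removing ENaC from the membrane. Tsc22d3 encodes GILZ, a further corticosteroid-induced protein of this pathway.

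The total of gene counts was between 19376152 and 28470831 per kidney (median 21592602). Pex5 itself was at 54.3 ± 4.63 CPM in Ctrlm and 43.7 ± 1.94 CPM in cKOm kidneys, and at 50.3 ± 6.97 CPM in Ctrlf and 43.6 ± 3.55 CPM in cKOf kidneys (mean ± SD, n = 6, CPM, the count of a gene scaled to a common library size with TMM factors). The fall passed the edgeR quasi-likelihood test in males (log2 fold change -0.31, adjusted p = 0.0219) and did not in females (-0.21, adjusted p = 0.177). The male call was lost without Ctrlm mouse 2 (adjusted p = 0.0656) and without cKOm mouse 4 (adjusted p = 0.0504). These counts cover the whole gene in the whole kidney and do not measure how complete the deletion was. The authors reported lower Pex5 mRNA in both sexes, with PEX5 protein nearly absent in cKOm and reduced in cKOf kidneys. By electron microscopy they found almost no peroxisomes in proximal tubules of either. Hepatocyte transcripts, a list of 10 genes that includes Alb, summed to 118 to 960 CPM in Ctrlm kidneys and to 90.7 to 504 CPM in cKOm kidneys. In Ctrlf kidneys the sum was 87.9 to 134 CPM, and in cKOf kidneys 65.6 to 147 CPM. Their mean log2 level was above 4 in 5 kidneys, 4 Ctrlm and 1 cKOm, and the calls of the 8 genes and of the pathway lists were repeated without these 5.

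In males, Scnn1b was the only one of the 8 genes past the threshold, and it rose in cKOm kidneys. The same threshold was passed by 9.05% of all genes tested, and by 4.14% in the direction of higher in cKOm, so the count of 1 of 8 was by itself no result about the list. Of the 8 genes, 7 had a positive log2 fold change, and their median was 0.21 against 0.015 over all genes. Nr3c2, Hsd11b2 and Nedd4l had 5 of 6 cKOm kidneys above all 6 Ctrlm kidneys without passing the adjusted threshold. The share of all genes with such an arrangement of kidneys is not given here. An unadjusted p under 0.05 in the edgeR test was reached in males by 4 of 8, and by 4039 of all 16092 genes. In females, 0 of 8 passed in the edgeR test, where 0.851% of all genes did, and the count was also 0 with limma-voom and with DESeq2. It was likewise 0 at an unadjusted p under 0.05, which 1083 of all 16092 genes reached in females.

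**Figure D1:**
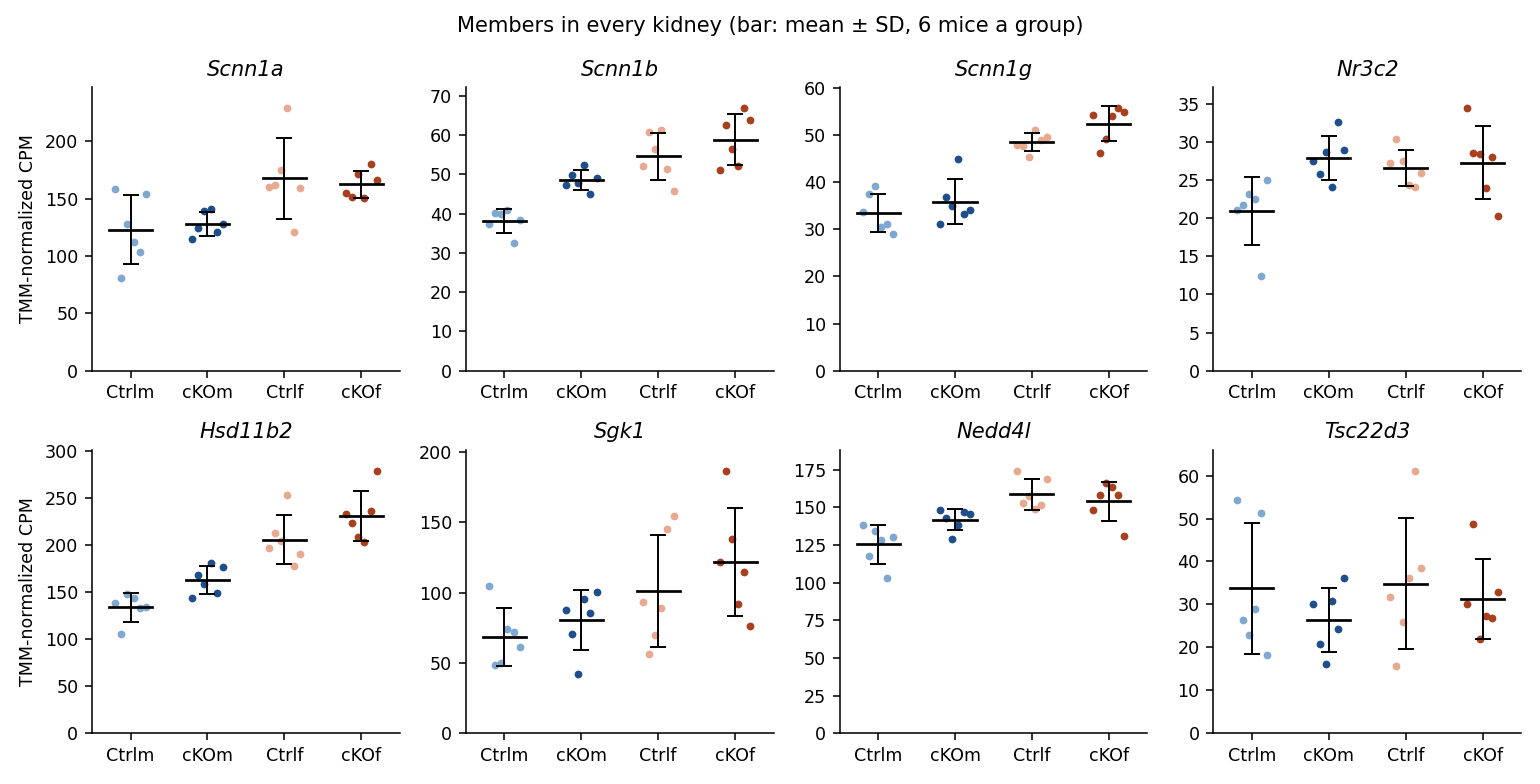
TMM-normalized CPM of the 8 genes in every kidney, with 1 panel per gene and axes from 0. Points are mice, and bars give mean ± SD of 6 mice; for Scnn1b every cKOm kidney lies above every Ctrlm kidney, and Sgk1 and Tsc22d3 spread most within groups.

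The channel subunits came first in the comparison. Scnn1b (ENSMUSG00000030873, chr7:121865038-121918514 of GRCm38, plus strand), the β subunit, ran from 32.5 to 40.9 CPM (median 39.1) in Ctrlm kidneys and from 45.0 to 52.4 CPM (median 48.5) in cKOm kidneys. In Ctrlf kidneys it ran from 45.8 to 61.3 CPM (median 54.3), and in cKOf kidneys from 51.1 to 66.9 CPM (median 59.6). The male groups did not overlap, which held in this direction for 3.69% of all genes, and the female groups overlapped widely. The male log2 fold change was 0.35 (SE 0.083, adjusted p = 0.0103), a 1.27-fold higher level, with an exact two-sided permutation p of 0.00216, the smallest that 6 against 6 mice allow. In females it was 0.11 (SE 0.082, adjusted p = 0.589). The call held without each mouse in turn (adjusted p from 0.0116 to 0.0310), and with the hepatocyte level as a covariate (0.46, adjusted p = 0.00440). Without the 5 kidneys with high hepatocyte transcripts, which leaves 2 Ctrlm and 5 cKOm mice, the log2 fold change was 0.40 and the adjusted p 0.130.

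Scnn1g (ENSMUSG00000000216, chr7:121734479-121768475, plus strand) encodes the γ subunit and lies 96.6 kilobases before Scnn1b on the same strand. Its levels ran from 29.1 to 39.3 CPM in Ctrlm (median 32.4) and from 31.2 to 45.0 CPM in cKOm kidneys (median 34.5). In females they ran from 45.4 to 51.1 CPM in Ctrlf (median 48.5) and from 46.3 to 55.7 CPM in cKOf (median 54.1). Both pairs of groups overlapped, with log2 fold changes of 0.10 (SE 0.086, adjusted p = 0.659) in males and 0.11 (SE 0.085, adjusted p = 0.586) in females. Whether the male changes of Scnn1b and Scnn1g differ from each other was not tested.

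Scnn1a (ENSMUSG00000030340, chr6:125320659-125344943, plus strand) encodes the α subunit and lies 906 kilobases from the end of the targeted Pex5 gene on the same chromosome. Its Ctrlm kidneys spread from 81.2 to 159 CPM (median 119.6) and enclosed all cKOm kidneys, which ran from 115 to 141 CPM (median 126). Ctrlf kidneys likewise spread from 121 to 229 CPM (median 161) around cKOf kidneys at 151 to 179.7 CPM (median 160.4). The log2 fold changes were 0.06 (SE 0.132, adjusted p = 0.895) in males and -0.04 (SE 0.132, adjusted p = 0.925) in females, and they changed sign without Ctrlm mouse 2 and without Ctrlf mouse 4.

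The upstream sequences of the 2 neighbouring subunit genes are shown because they are read from the same strand of the same stretch of chromosome 7 while only 1 of them passed the test in males. The sequences are the 250 bases before the RefSeq start (GRCm38.p6, plus strand, 5′ to 3′). The response element of the corticosteroid receptors was searched as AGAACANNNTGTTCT, which reads the same on both strands, and as its shorter arm AGAACA or, on the other strand, TGTTCT. Matches are printed in capitals, and neither of these windows holds one.
Scnn1b, chr7:121864788-121865037: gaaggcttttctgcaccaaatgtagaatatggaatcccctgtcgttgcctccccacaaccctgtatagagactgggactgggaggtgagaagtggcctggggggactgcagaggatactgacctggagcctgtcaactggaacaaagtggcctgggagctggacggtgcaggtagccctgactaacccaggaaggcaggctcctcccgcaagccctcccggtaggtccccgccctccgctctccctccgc
Scnn1g, chr7:121734229-121734478: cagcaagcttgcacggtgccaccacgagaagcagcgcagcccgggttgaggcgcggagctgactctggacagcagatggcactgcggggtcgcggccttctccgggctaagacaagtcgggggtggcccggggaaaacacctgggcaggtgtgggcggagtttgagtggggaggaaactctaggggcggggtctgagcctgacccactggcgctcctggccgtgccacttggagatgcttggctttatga

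Receptor and gatekeeper followed. Nr3c2 (ENSMUSG00000031618, chr8:76899442-77245012, plus strand), the mineralocorticoid receptor, ran from 12.4 to 25.0 CPM in Ctrlm (median 22.1) and from 24.1 to 32.5 CPM in cKOm kidneys (median 28.1). Ctrlf kidneys lay between 24.04 and 30.4 CPM (median 26.5) and cKOf kidneys between 20.3 and 34.4 CPM (median 28.2). In males 1 Ctrlm kidney reached into the cKOm range, and in females the cKOf range enclosed the Ctrlf range. The male log2 fold change was 0.41 (SE 0.129), with an exact two-sided permutation p of 0.00433 and an edgeR adjusted p of 0.0636. The female value was 0.04 (SE 0.128, adjusted p = 0.934). The male difference passed the threshold with DESeq2 (adjusted p = 0.0466) and when p values were adjusted within each sex (0.0353), and its adjusted p reached 0.341 with the hepatocyte covariate. Exons of Nr3c2 overlap exons of Gm10649 on the other strand, and how the counting used strand was not given in the sources used here.

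Hsd11b2 (ENSMUSG00000031891, chr8:105518755-105523988, plus strand), the glucocorticoid-inactivating enzyme, was at 105 to 148 CPM in Ctrlm (median 136) and at 144 to 181 CPM in cKOm kidneys (median 164). In females it was at 178 to 253 CPM in Ctrlf (median 201) and at 204 to 279 CPM in cKOf (median 229). In males 1 cKOm kidney lay inside the Ctrlm range, and the female groups overlapped. The log2 fold change was 0.28 in males (SE 0.094, adjusted p = 0.0847, exact permutation p = 0.00649) and 0.17 in females (SE 0.094, adjusted p = 0.418). Adjustment within each sex brought the male value under the threshold (adjusted p = 0.0472).

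Neither the kinase nor the ligase passed in either sex. Sgk1 (ENSMUSG00000019970, chr10:21882184-21999903, plus strand), the aldosterone-induced kinase, varied more than 2-fold within each group: from 48.6 to 105 CPM in Ctrlm (median 66.9) and from 42.5 to 101 CPM in cKOm kidneys (median 86.7). The female ranges were 56.5 to 154 CPM in Ctrlf (median 91.4) and 76.5 to 187 CPM in cKOf (median 119). All ranges overlapped, and the log2 fold changes had wide errors, 0.23 (SE 0.242, adjusted p = 0.724) in males and 0.26 (SE 0.241, adjusted p = 0.676) in females. Nedd4l (ENSMUSG00000024589, chromosome 18) encodes the ligase that withdraws ENaC. It ran from 103 to 138 CPM in Ctrlm (median 129.6) and from 129 to 148 CPM in cKOm kidneys (median 144). Ctrlf kidneys ran from 149 to 174 CPM (median 155) and cKOf kidneys from 131 to 166 CPM (median 158). In males 5 of 6 cKOm kidneys were above all Ctrlm kidneys (0.18, SE 0.074, exact permutation p = 0.0152, edgeR adjusted p = 0.208). The female groups overlapped (-0.04, SE 0.074, adjusted p = 0.852). Nedd4l exons overlap those of A330084C13Rik on the other strand, with the same limit on strand as for Nr3c2.

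Tsc22d3 (ENSMUSG00000031431, chrX:140539528-140600659, minus strand), the GILZ gene, had the widest relative spread in the control groups, from 18.2 to 54.4 CPM in Ctrlm (median 27.7) and from 15.7 to 61.1 CPM in Ctrlf kidneys (median 33.8). It ran from 16.03 to 36.3 CPM in cKOm (median 27.3) and from 21.9 to 48.6 CPM in cKOf kidneys (median 28.7). It was the only gene of the 8 with a negative male log2 fold change, -0.35 (SE 0.275, adjusted p = 0.611), and the female value was -0.16 (SE 0.274, adjusted p = 0.858). At this spread between mice, a change of the size seen for Scnn1b is smaller than 2 standard errors for Sgk1 and Tsc22d3.

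**Figure D2:**
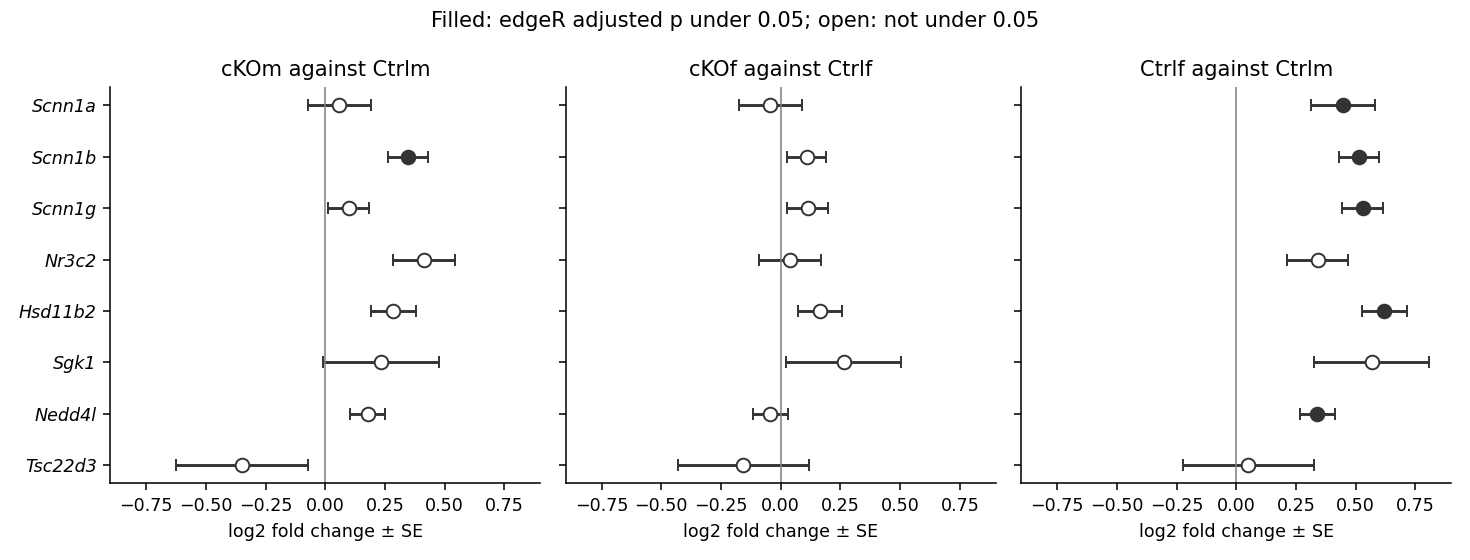
Log2 fold changes with their standard errors from the edgeR fit for the 8 genes, in cKOm against Ctrlm, cKOf against Ctrlf and Ctrlf against Ctrlm. Filled points have an adjusted p under 0.05: Scnn1b at 0.35 in males, none in females, and 5 genes between the control sexes, all higher in Ctrlf.

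Whether the change differed by sex was tested as an interaction. None of the 8 genes passed in the edgeR test, where 2.31% of all genes did, with 0 called by DESeq2 and by limma-voom. An unadjusted p under 0.05 was reached by 2 of 8, and by 2159 of all 16092 genes. The female minus male difference was -0.24 for Scnn1b (SE 0.116, adjusted p = 0.378), -0.37 for Nr3c2 (SE 0.182, adjusted p = 0.372) and -0.22 for Nedd4l (SE 0.105, adjusted p = 0.356). The Scnn1b change was therefore not shown to differ between the sexes.

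The controls of the 2 sexes were compared next. Of the 8 genes, 5 passed in Ctrlf against Ctrlm, all higher in females, where 16.8% of all genes tested passed and 8.11% were higher in females. Hsd11b2 was 1.54-fold higher in Ctrlf (log2 fold change 0.62, SE 0.094, adjusted p = 1.7e-05), Scnn1g 1.44-fold (0.53, SE 0.086, adjusted p = 4.1e-05), Scnn1b 1.43-fold (0.51, SE 0.083, adjusted p = 3.9e-05) and Nedd4l 1.27-fold (0.34, SE 0.074, adjusted p = 0.00147). In these 4 genes every Ctrlf kidney was above every Ctrlm kidney, which held for 3.4% of all genes. All 3 channel subunits were thus higher in control females, with Scnn1a at 1.36-fold (0.45, SE 0.132, adjusted p = 0.0184). The Scnn1a call was lost without Ctrlf mouse 4 (0.32, adjusted p = 0.0781), in the fit of the controls alone (0.44, adjusted p = 0.0919), with the hepatocyte covariate (0.49, adjusted p = 0.0535) and without the 4 Ctrlm kidneys with high hepatocyte transcripts (0.35, adjusted p = 0.197). The other 4 calls held in each of these, with adjusted p of 0.0148 at most without the kidneys with high hepatocyte transcripts. Nr3c2 (0.34, SE 0.129, adjusted p = 0.0719), Sgk1 (0.57, SE 0.242, adjusted p = 0.116) and Tsc22d3 (0.05, SE 0.273, adjusted p = 0.938) did not pass. Sgk1 passed without Ctrlf mouse 2 (adjusted p = 0.0488) or Ctrlm mouse 1 (0.0452), and Nr3c2 without Ctrlm mouse 6 (0.0484). The median over the 8 genes was 0.48 against 0.03 over all genes. The same Ctrlm kidneys enter this comparison and that of cKOm with Ctrlm, and for Scnn1b the cKOm median of 48.5 CPM lay between the Ctrlm median of 39.1 and the Ctrlf median of 54.3.

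The balance between functional partners was followed as the ratio of levels per kilobase of exon within each kidney. These ratios were chosen after the values were seen and are given without a test. The Scnn1b to Scnn1g ratio ran from 1.15 to 1.52 in Ctrlm (median 1.24), 1.32 to 1.72 in cKOm (median 1.55), 1.05 to 1.45 in Ctrlf (median 1.30) and 1.07 to 1.54 in cKOf kidneys (median 1.31). The groups overlapped, with the highest median in cKOm. Hsd11b2 was also set against Hsd11b1, the enzyme that regenerates active glucocorticoid. That ratio ran from 2.61 to 5.26 in Ctrlm (median 3.59) and from 6.62 to 11.8 in cKOm kidneys (median 8.72). It ran from 9.95 to 19.3 in Ctrlf (median 12.4) and from 13.01 to 19.7 in cKOf kidneys (median 14.8). The Ctrlm kidneys were below all others in this ratio, and it is Hsd11b1 more than Hsd11b2 that differed, as given with the pathway genes. The mineralocorticoid to glucocorticoid receptor ratio, Nr3c2 to Nr3c1, had a median of 0.187 for Ctrlm, 0.201 for cKOm, 0.237 for Ctrlf and 0.225 for cKOf kidneys. Its Ctrlm and Ctrlf ranges were apart, from 0.0970 to 0.198 and from 0.218 to 0.269.

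**Figure D3:**
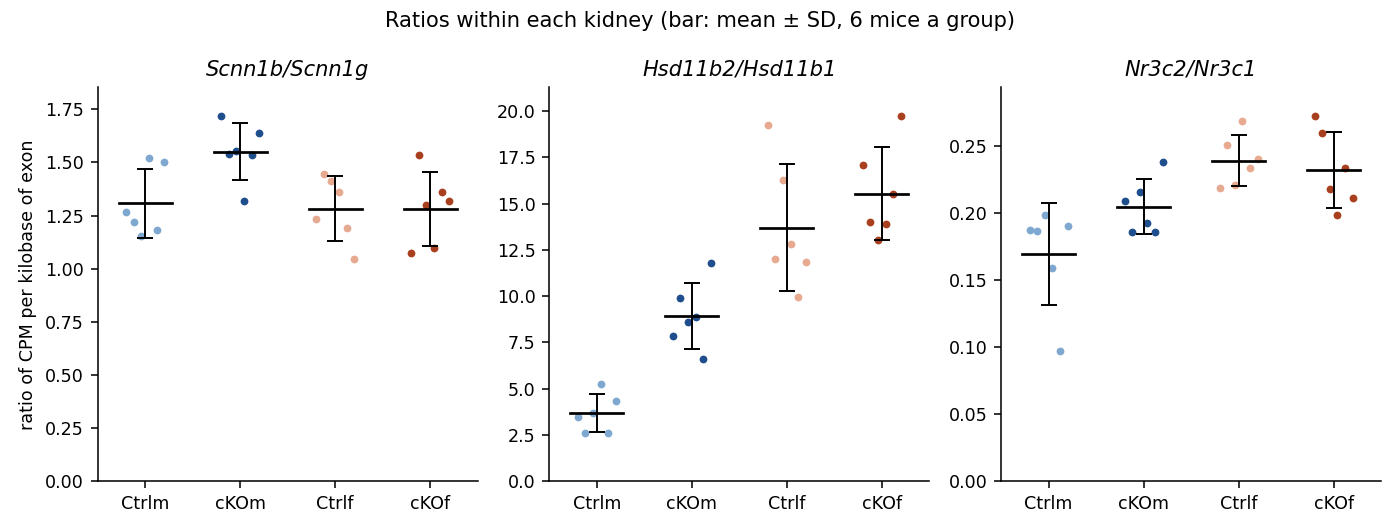
Ratio of levels per kilobase of exon within each kidney for Scnn1b to Scnn1g, Hsd11b2 to Hsd11b1 and Nr3c2 to Nr3c1, with mean ± SD of 6 mice and axes from 0. The Hsd11b2 to Hsd11b1 ratio is 5.26 at most in Ctrlm kidneys and 6.62 at least in the other 3 groups.

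Levels can be ordered between genes only per length, here in mean CPM per kilobase of exon. Hsd11b2 was first in every group, from 72.8 in Ctrlm to 126 in cKOf kidneys, and Scnn1a was second, from 29.7 in Ctrlm to 40.5 in Ctrlf. The ranges of these 2 genes did not overlap in any group. Nr3c2 was last in every group, between 3.24 and 4.31. Scnn1b (14.5 in Ctrlm), Sgk1 (13.98) and Scnn1g (11.2) stood in the middle with Tsc22d3 (7.77) and Nedd4l (7.11) after them. Scnn1b and Sgk1 were neighbours in every group with overlapping ranges, and Tsc22d3 and Nedd4l changed places between groups, also with overlapping ranges. Divided by the longest transcript in place of all exons, Sgk1 came directly after Scnn1a in every group and Nedd4l moved above Scnn1g, as its 34 transcripts cover 17659 exon bases against 7787 in the longest one. The subunit levels per kilobase were thus unequal, with Scnn1a above Scnn1b and Scnn1b above Scnn1g in the mean of every group.

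The genes around these 8 were counted in 4 lists of 42 genes in all. In males, 7 of 42 passed, 2 higher and 5 lower in cKOm, against 9.05% of all genes (4.14% higher and 4.9% lower). In females 0 of 42 passed in the edgeR test, where 0.851% of all genes did, and 0 with limma-voom and DESeq2. An unadjusted p under 0.05 in females was reached by 2 of 42, and by 1083 of all 16092 genes. Between the control sexes 12 of 42 passed, 5 higher and 7 lower in Ctrlf, against 16.8% of all genes (8.11% higher and 8.71% lower). Without the 4 Ctrlm kidneys and 1 cKOm kidney with high hepatocyte transcripts, 7 of 42 passed between the control sexes, against 1570 of all 15955 genes. Of these 7, 5 were among the 12: Hsd11b1, Hsp90aa1, Hsp90ab1, Mtor and Kcnj1. Adjusted p then ran from 0.0554 for Ndrg2 to 0.805 for Plau in the 7 calls that were lost, the others being Fkbp5, St14, Spint1, Wnk4 and Mapkap1. The median log2 fold change of the 42 genes was -0.02 in males, 0.04 in females and 0.03 between the control sexes. Among the genes that passed, the male fall was steepest in Hsd11b1 and Mtor. Without the 5 kidneys with high hepatocyte transcripts, Hsd11b1, Mtor (-0.61, adjusted p = 0.00479), Plau (-0.67, adjusted p = 0.00846) and Ndrg2 (-0.54, adjusted p = 0.0479) still passed in males, and Mlst8 (0.38, adjusted p = 0.325), Klk1 and Fkbp5 (-0.66, adjusted p = 0.388) did not. Fkbp4 (-0.59, adjusted p = 0.0235) and Hsp90aa1 (-0.58, adjusted p = 0.0435) passed in males there and not with all kidneys. The male count was then 6 of 42, against 599 of all 15955 genes.

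In the list of receptor and steroid access genes, 1 of 7 passed in males. Hsd11b1 fell from 63.3 to 118 CPM in Ctrlm kidneys (median 92.2) to 34.7 to 52.1 CPM in cKOm kidneys (median 42.5). It was at 23.7 to 45.7 CPM in Ctrlf (median 39.0) and at 31.6 to 37.0 CPM in cKOf kidneys (median 34.6). Every cKOm kidney was below every Ctrlm kidney and the cKOm range overlapped that of Ctrlf. How many of all genes were without overlap in this lower direction is not given here, which also limits Mtor and Ndrg2 below. The male log2 fold change was -1.04 (SE 0.140, adjusted p = 1.4e-05), the female one -0.07 (adjusted p = 0.876), and the difference between them passed its own test (0.97, adjusted p = 0.00517). Hsd11b1 is also a liver gene, and the male value was -1.01 with the hepatocyte covariate and -1.20 (adjusted p = 9.9e-04) without the 5 kidneys with high hepatocyte transcripts. Between the control sexes 3 of 7 passed, all lower in Ctrlf, among them the receptor chaperones Hsp90aa1 (-0.68, adjusted p = 0.00156) and Hsp90ab1 (-0.48, adjusted p = 0.00189).

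In the SGK1 and Nedd4-2 list, 2 of 13 passed in males. Mtor, the kinase of the complex that activates SGK1, was at 208 to 323 CPM in Ctrlm (median 239) and at 127 to 155 CPM in cKOm kidneys (median 135). Ctrlf kidneys were at 135 to 175 CPM (median 161) and cKOf kidneys at 123 to 173 CPM (median 144). The Ctrlm kidneys stood above all others, and the male log2 fold change of -0.83 (SE 0.097, adjusted p = 1.6e-06) differed from the female -0.12 (adjusted p = 0.605) by 0.70 (interaction adjusted p = 0.00311). Mlst8, a further subunit of that complex, was at 14.8 ± 2.53 CPM in Ctrlm and 19.7 ± 1.28 CPM in cKOm kidneys (0.41, adjusted p = 0.0252). Its call was lost without any one of 6 of the 12 male mice (Ctrlm mice 2, 4 and 6 and cKOm mice 3, 4 and 5, adjusted p from 0.0503 to 0.115) and with the hepatocyte covariate (0.42, adjusted p = 0.119), and its exons overlap Bricd5 on the other strand. The complex partners Rictor and Mapkap1 did not pass in males, and between the control sexes Mapkap1 (-0.27, adjusted p = 0.00189) and Mtor (-0.62, adjusted p = 2.5e-05) were lower and the kinase Wnk4 (0.27, adjusted p = 0.0169) higher in Ctrlf.

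In the list of ENaC proteases and inhibitors, 2 of 10 passed in males. Klk1, a kallikrein secreted by the connecting tubule, was at 1189 to 1662 CPM in Ctrlm (median 1274) and at 1502 to 2461 CPM in cKOm kidneys (median 1922). The log2 fold change was 0.50 (SE 0.127, adjusted p = 0.0175) in males and 0.29 (adjusted p = 0.234) in females. The Klk1 family has near-identical members, so its count is uncertain, and the male call was lost without cKOm mouse 3 (adjusted p = 0.0649) and without the 5 kidneys with high hepatocyte transcripts (0.36, adjusted p = 0.464). Plau, the urokinase, had log2 fold changes of -0.38 (adjusted p = 0.0493) in males and -0.26 (adjusted p = 0.238) in females. The male Plau call was lost without any one of 10 of the 12 male mice, all except Ctrlm mouse 1 and cKOm mouse 3 (adjusted p from 0.0535 to 0.123), and with limma-voom (adjusted p = 0.0601). Between the control sexes, the matriptase gene St14 (0.55, adjusted p = 8.6e-05), its inhibitor Spint1 (0.33, adjusted p = 0.00144) and Plau (0.33, adjusted p = 0.0465) were higher in Ctrlf.

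Among the corticosteroid target genes, 2 of 12 passed in males, both lower. The list as a whole went both ways: 6 of 12 male log2 fold changes were positive. They ran from -0.80 to 0.74, with a median of 0.004 against 0.015 over all genes. Ndrg2, an aldosterone-induced gene, was at 137 to 195 CPM in Ctrlm (median 161) and at 96.1 to 132 CPM in cKOm kidneys (median 109), without overlap. Its male log2 fold change of -0.55 (SE 0.101, adjusted p = 7.9e-04) differed from the female -0.01 (adjusted p = 0.972) by 0.53 (interaction adjusted p = 0.0426). Fkbp5, a glucocorticoid-induced co-chaperone of the receptors, was at 38.0 to 98.8 CPM in Ctrlm (median 66.3) and at 32.8 to 40.7 CPM in cKOm kidneys (median 38.7). The fall of -0.80 (SE 0.227, adjusted p = 0.0357) was lost without any one of 9 of the 12 male mice, all except Ctrlm mice 2, 4 and 6 (adjusted p from 0.0541 to 0.119). It was also lost with the hepatocyte covariate (-0.66, adjusted p = 0.2997) and with limma-voom (adjusted p = 0.0533). Between the control sexes, Fkbp5 (-1.07, adjusted p = 0.00116) and Ndrg2 (-0.42, adjusted p = 0.00369) were lower in Ctrlf, and the potassium channel gene Kcnj1 (0.44, adjusted p = 3.6e-04) was higher.

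**Figure D4:**
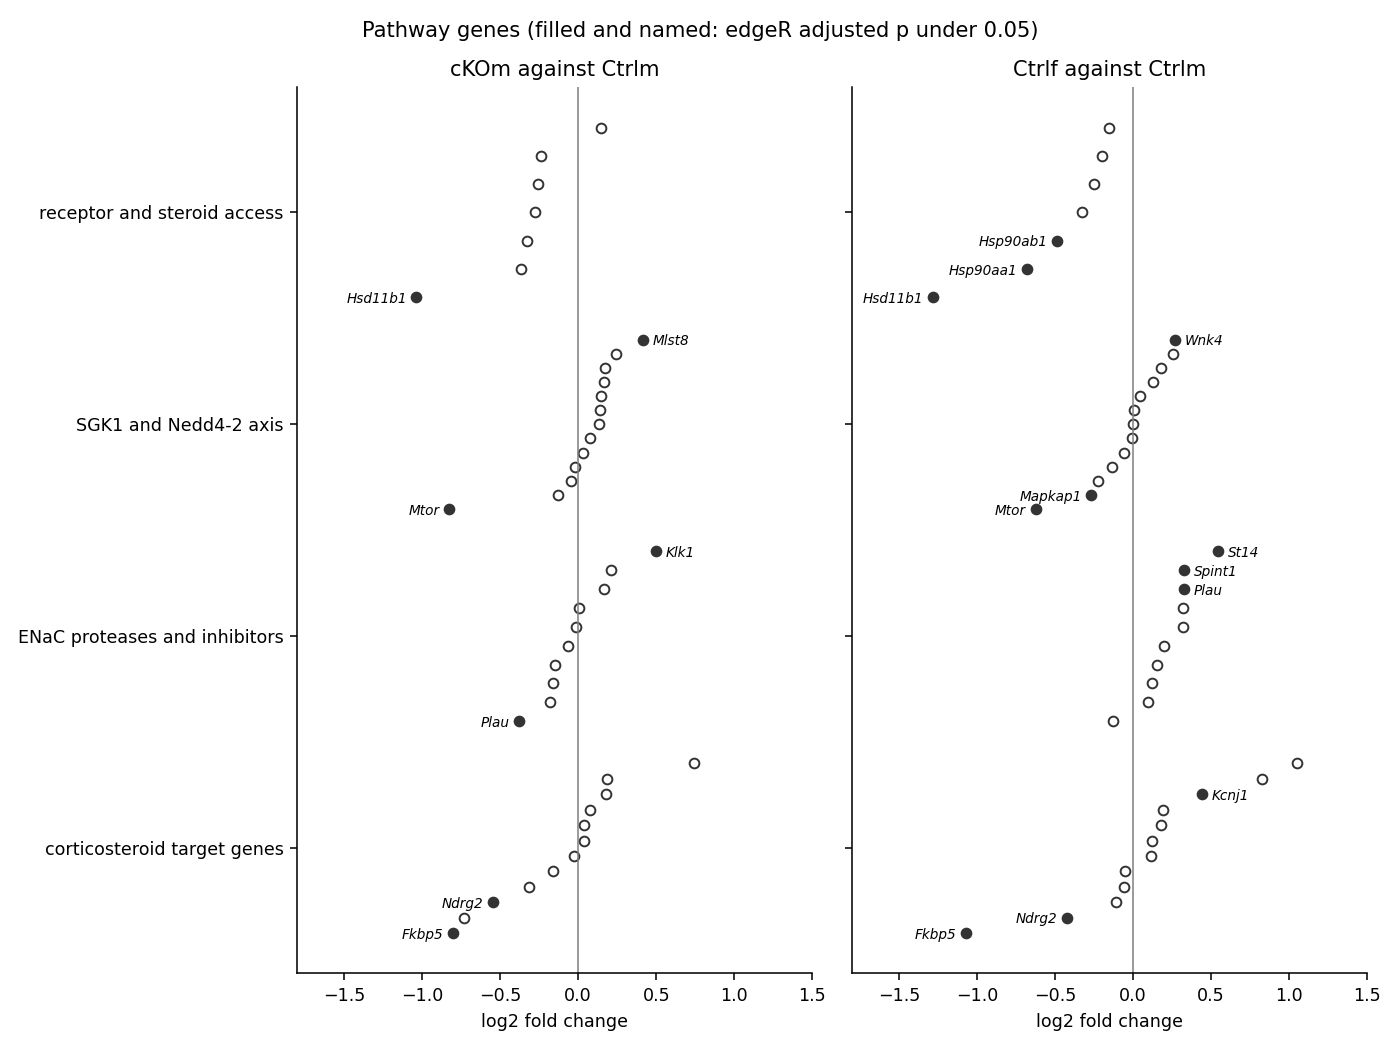
Log2 fold changes of the 42 pathway genes by list, in cKOm against Ctrlm and in Ctrlf against Ctrlm, with genes of an adjusted p under 0.05 filled and named. Hsd11b1, Mtor, Ndrg2 and Fkbp5 lie to the left in both comparisons, which share the Ctrlm kidneys.

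Levels of cell type markers were compared in the same kidneys. Over all genes, the threshold was passed by 9.05% in males and 0.851% in females. Between the control sexes it was passed by 16.8%, with 8.11% higher and 8.71% lower in Ctrlf. An unadjusted p under 0.05 was reached by 4039 of 16092 genes in males and by 4519 between the control sexes. Principal cell markers (6 genes) summed to 195 to 263 CPM in Ctrlm (median 224), 106 to 210 CPM in cKOm (median 177), 251 to 395 CPM in Ctrlf (median 301) and 222 to 359 CPM in cKOf kidneys (median 295). In males 1 of the 6 passed, the basolateral water channel gene Aqp4, which fell (-1.36, adjusted p = 0.0155; -1.11, adjusted p = 0.330 without the 5 kidneys with high hepatocyte transcripts), and between the control sexes 0 of 6 passed by edgeR, with 2 at an unadjusted p under 0.05 and all 6 log2 fold changes positive. Aqp2 (0.09, adjusted p = 0.876) and Gata3 (0.16, adjusted p = 0.636) had positive male values, the other 3 markers negative ones that did not pass. The male ranges of the sum overlapped, and the sums were not tested. Connecting tubule markers (4 genes) had median sums of 561 CPM (Ctrlm), 719 CPM (cKOm), 780 CPM (Ctrlf) and 818 CPM (cKOf), with 0 of 4 called in males (2 at an unadjusted p under 0.05) and 1 of 4 between the control sexes. Distal convoluted tubule markers (4 genes) had medians of 1697, 1972, 2288 and 2259 CPM in the same order, with 0 of 4 called in males (1 at an unadjusted p under 0.05) and 2 of 4 between the control sexes. Thick ascending limb markers (4 genes) had medians of 3845, 4365, 4790 and 4691 CPM, and Slc12a1 rose in males (0.33, adjusted p = 0.0116). Without those 5 kidneys its male value was 0.36 (adjusted p = 0.168). Between the control sexes 3 of 4 thick ascending limb markers passed, 2 higher and 1 lower in Ctrlf. Proximal tubule markers (6 genes) had medians of 8273, 6992, 8386 and 8199 CPM. Between the control sexes 4 of 6 passed, 2 higher and 2 lower in Ctrlf. In males 3 of 6 were lower in cKOm (4.9% of all genes were), namely Slc34a1, Lrp2 and Slc22a6. Without those 5 kidneys Slc22a6 still passed in males (-0.72, adjusted p = 0.0234). Slc34a1 (-0.34, adjusted p = 0.138) and Lrp2 (-0.42, adjusted p = 0.108) did not. Over all male kidneys, Slc5a12 of the same list was at 0.63 (adjusted p = 0.0512), with every cKOm kidney above every Ctrlm kidney. Podocyte markers (4 genes) had medians of 421, 466.4, 571 and 551 CPM. Between the control sexes 3 of 4 passed, all higher in Ctrlf, and the list's median log2 fold change of 0.43 was close to the 0.48 of the 8 genes. Intercalated cell markers (5 genes) had medians of 206, 229, 267 and 270.3 CPM, and between the control sexes all 5 values were positive with 1 past the threshold. In males 2 of 5 passed, 1 higher and 1 lower in cKOm, and in females 1 of 5 passed, lower in cKOf. Without the 5 kidneys with high hepatocyte transcripts, Slc4a1 of this list was lower in cKOm (-0.85, adjusted p = 0.0235). It was also lower in cKOf (-0.71, adjusted p = 0.00726). No marker of these 7 lists was at a count of 0 in any kidney. The part of these marker levels in the results of the 8 genes was not tested.

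Mice of 1 group differed in several of the 8 genes, and the deviations from the group means were compared between genes over all 24 kidneys. After Benjamini-Hochberg adjustment over the 28 pairs, 2 passed by Pearson's r and 3 by Spearman's rho. With RLE in place of TMM scaling the same 2 passed by r, and by rho only Sgk1 with Tsc22d3 did. The adjusted p of rho was then 0.0505 for Scnn1a with Hsd11b2 and for Scnn1b with Hsd11b2. Sgk1 and Tsc22d3, both corticosteroid-induced, varied together (Pearson r = 0.75, permutation p = 1.1e-04, adjusted p = 0.00308; Spearman rho = 0.73, permutation p = 2.9e-04). Without the 2 kidneys farthest from the median of Sgk1 the r was 0.66. Within the 12 male kidneys it was 0.80 and within the 12 female kidneys 0.72, with adjusted permutation p of 0.0655 and 0.163. Scnn1a and Hsd11b2 had a rho of 0.64 (permutation p = 0.00154, adjusted p = 0.0216) and an r of 0.67 (permutation p = 0.00118, adjusted p = 0.0165). The r fell to 0.43 without the 2 kidneys farthest from the median of Scnn1a, so that its size depends in part on those kidneys. Within males it was 0.64 and within females 0.72, with adjusted permutation p of 0.469 and 0.163. Scnn1b and Hsd11b2 passed by rho alone (0.59, permutation p = 0.00428, adjusted p = 0.0399), with an r of 0.49 (permutation p = 0.0329, adjusted p = 0.184) that was 0.53 without the 2 kidneys farthest from the median of Scnn1b. Their r was 0.21 within males and 0.66 within females (adjusted permutation p of 0.948 and 0.199).

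**Figure D5:**
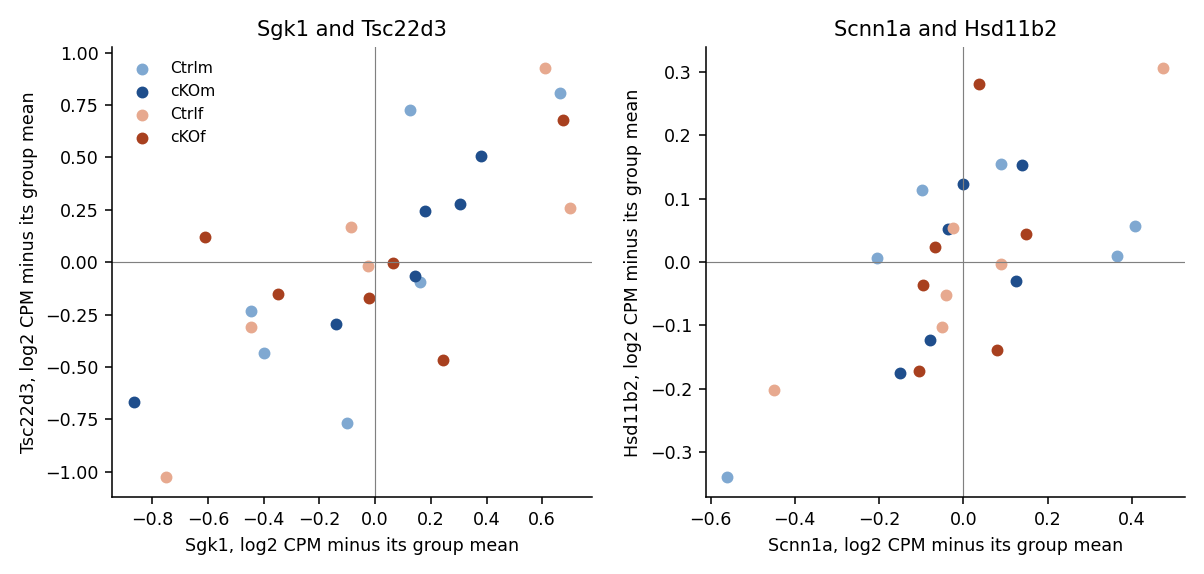
Deviation of each kidney from its group mean, in log2 CPM, for Sgk1 against Tsc22d3 and for Scnn1a against Hsd11b2 (24 kidneys, coloured by group). Kidneys above their group mean for Sgk1 are mostly above it for Tsc22d3 (r = 0.75 over 24 kidneys), with exceptions among the Ctrlm, cKOm and cKOf kidneys. The Scnn1a relation (r = 0.67) falls to 0.43 without its 2 farthest kidneys.

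The promoter of Sgk1 is shown because it is the classical receptor target of the list and 1 of the pair that varied together. Promoter entries were found for 5 of the 8 genes, with 12 windows of 250 bases: 6 for the alternative starts of Sgk1, 3 for Tsc22d3 and 1 each for Nr3c2, Scnn1b and Scnn1g. The full element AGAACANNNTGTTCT was in 1 of these 12 windows, against 0.00913% of the 32851 windows of all genes (3 windows). At least 1 arm was in 4 of the 12, against 16.1% of all windows. The window with the full element belongs to the Sgk1 start just after chr10:21993889, and the element, at chr10:21993701-21993715, ends 174 bases before that start. Capitals mark the element and a further arm, overlapping in none of their bases.
Sgk1, chr10:21993640-21993889, plus strand: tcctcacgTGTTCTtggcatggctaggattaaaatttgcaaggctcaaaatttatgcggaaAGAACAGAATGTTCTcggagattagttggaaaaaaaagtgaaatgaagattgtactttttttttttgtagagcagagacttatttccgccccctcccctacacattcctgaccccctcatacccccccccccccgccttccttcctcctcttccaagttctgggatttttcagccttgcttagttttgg

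The genes whose deviations from the group means were most like those of each gene were listed as a description, among 11059 genes of at least 5 CPM over the 24 kidneys, which share libraries, depth and tissue composition. Scnn1a was closest to Ezr (r = 0.85), Dmtn (0.84) and Efhd1 (0.84), and Scnn1b to Tmem191c (0.72), Lrp11 (0.70) and Tle2 (0.68). Scnn1g was closest to Apoa2 (0.81), Alb (0.72) and Ldhd (0.70), of which Apoa2 and Alb belong to the hepatocyte list. With the hepatocyte covariate the Scnn1g log2 fold change in males was 0.26 (adjusted p = 0.132) in place of 0.10, and that between the control sexes 0.72 (adjusted p = 2.5e-06) in place of 0.53. Nr3c2 was closest to Fam129a (r = 0.90), Ptprf (0.88) and Sorl1 (0.87), and Hsd11b2 to Coq8b (0.84), Naa80 (0.84) and Tbc1d13 (0.83). Sgk1 was closest to Pik3r3 (0.77), the heat shock gene Hspa1b (0.77) and Tsc22d3 (0.75), and Tsc22d3 to the clock gene Per2 (0.87), the heat shock gene Dnajb1 (0.86) and Amd1 (0.84). Nedd4l was closest to Sos2 (0.90), Slc35e1 (0.87) and Adcy9 (0.87).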

How the data were processed

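The authors deposited 1 file per kidney with whole read counts per gene, without normalization. Per the labels, the submitters' processing notes name cutadapt 1.8, STAR 2.5.3a, HTSeq 0.9.1 and the build GRCm38. Library kits marked strand, but the counting mode was not given in the sources used here. Lines for uncounted reads were set aside (no gene 6.41% to 9.25%, ambiguous 1.01% to 1.30%). Names and positions came from GENCODE vM21, promoters from RefSeq (GRCm38.p6).

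The quasi-likelihood test of edgeR 4.0.16 (R 4.3.3) was run on genes reaching 1 CPM in 1 kidney or more, after TMM scaling, with all 4 groups in a single model. Benjamini-Hochberg adjustment covered both knockout comparisons jointly, and each of the interaction and sex comparisons separately, at a threshold of 0.05. Single genes were compared by two-sided exact permutation tests over 924 arrangements, and deviations of log2 CPM (prior count 2) by 100000 permutations within groups. Alternatives were limma 3.58.1 (voom), DESeq2 1.42.0, RLE scaling, 2 other filters, each sex alone, adjustment within sex, a replicate block, a hepatocyte covariate and each mouse left out; leaving out the 5 kidneys with high hepatocyte transcripts was added after the data were seen. Kidneys of a group differed by more than sampling noise (chi-square per degree of freedom 9.68 to 96.7 over 60 pairs), and n counts mice.

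On simulated data of 16092 genes, the male test recovered 44 of 100 genes changed by 0.5 and 73 of 100 changed by 1 on the log2 scale with 0 false calls, and the female test 45 and 81 with 2 false calls. The members and lists were chosen with earlier results of these data known. Named genes were Pex5, the 8 members, pathway genes past the threshold in males or females, and the 3 genes most like each member. Of the marker genes, some that passed were named and some that did not. Pathway genes named for the sex comparison passed there and were chosen after their values were seen, as were Rictor, Fkbp4 and the ratios. Permutations, promoter searches and plots used Python 3.11.15 with scipy 1.17.1, numpy 2.4.6, pandas 2.3.3 and matplotlib 3.10.9.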

Additional observations from a re-analysis of the deposited data

Results flagged for a closer look

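In 32 groups of 6 kidneys examined for the 8 genes, 2 single kidneys stood apart from their group by Dixon's criterion, which chance meets in about 1 in 20 groups. Nr3c2 was at 12.4 CPM in Ctrlm mouse 5, with the next Ctrlm kidney at 21.01 CPM (gap over range 0.752). Hsd11b2 was at 105 CPM in Ctrlm mouse 2, with the next Ctrlm kidney at 134 CPM (gap over range 0.699).

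The change in cKO kidneys differed between females and males, by the edgeR interaction test, for 3 of the 42 pathway genes, against 2.31% of all genes. The female minus male difference was 0.97 on the log2 scale for Hsd11b1 (adjusted p = 0.00517), 0.70 for Mtor (adjusted p = 0.00311) and 0.53 for Ndrg2 (adjusted p = 0.0426). Without the 5 kidneys with high hepatocyte transcripts these differences were 1.13 (adjusted p = 0.0197), 0.48 (adjusted p = 0.110) and 0.53 (adjusted p = 0.1499), so that Hsd11b1 alone of the 3 still passed. In that fit 4 of the 42 pathway genes passed the interaction test, against 254 of all 15955 genes. Besides Hsd11b1 they were Fkbp4 (0.76, adjusted p = 0.0235), Hsp90aa1 (0.78, adjusted p = 0.0324) and Hsp90ab1 (0.58, adjusted p = 0.0422).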

How the results depend on the processing

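Scnn1b in males and the 4 female-high calls of Scnn1b, Scnn1g, Hsd11b2 and Nedd4l kept their direction and their side of the threshold under every alternative run, except that Scnn1b in males did not pass without the 5 kidneys with high hepatocyte transcripts, where the count of members called in males was 0. In that fit 599 of all 15955 genes passed in males, against 1456 of 16092 with all kidneys. The count of members was 2 with DESeq2 (1756 of all 16092 genes) and 3 with adjustment within each sex (1915 of 16092). The pathway count in males was 4 with the hepatocyte covariate, where 812 of all 16092 genes passed. It was 4 to 6 with a male mouse left out, where 1152 to 1473 of all genes passed. Between the control sexes it was 7 without the 5 kidneys, where 1570 of all 15955 genes passed. The Pex5 value in males was no longer past the threshold with the hepatocyte covariate (-0.31, adjusted p = 0.136) or without the 5 kidneys (-0.26, adjusted p = 0.382), and ran from -0.37 to -0.27 with a mouse left out. No pair of genes correlated past the adjusted threshold (0 of 28) within the 12 male or the 12 female kidneys. Values near 0 changed sign with a mouse left out: Scnn1a in males (-0.0363 to 0.15) and females (-0.12 to 0.0572), Nr3c2 in females (-0.0383 to 0.11), and Tsc22d3 in females (-0.33 to 0.0874) and between the control sexes (-0.21 to 0.24). Without the 5 kidneys Scnn1a in males was -0.0733 and Tsc22d3 between the control sexes -0.0230. The cause of these changes was not tested.

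Kidneys with the same replicate number came from different mice and were not paired: over 36 same-number pairs the correlation of deviations ran from -0.199 to 0.12, and 0 kidneys correlated best with their own number. With the replicate number as a block the members called were 1 in males, 0 in females and 5 between the control sexes, and the pathway genes 5, 0 and 12. Of all 16092 genes, 1268, 110 and 2415 passed in the same order. The read depth gave at least 237 reads for each of the 8 genes in every kidney.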
